A study of Mus musculus with 6 samples.

Results

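The chemokine genes Ccl8, Cxcl13, Cxcl9 and Cxcl14 and the chemerin receptor gene Gpr1 were described in adipose stromal cells, the fibroblast-like progenitors of fat tissue. These 5 genes were found by their symbols in the authors' table comparing perigonadal with subcutaneous cells, among 3181 genes with a name and 23531 probe sets in all, and each had 1 probe set. They had been picked because they were much lower in perigonadal cells. That table holds only probe sets with an unadjusted paired p-value by the authors of up to 0.05, so the difference between the depots is given below as a description of the 5 genes, with no test.

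The cells came from perigonadal fat, the visceral depot beside the gonads, or from subcutaneous fat of male mice, in 3 pools per depot, each on 1 of 6 Affymetrix arrays. They had not been cultured and had been sorted with magnetic beads as CD45- and CD31- (not leukocytes or endothelium) and Sca1+ (a progenitor surface marker). The design names 6 animals and independent pools, without saying whether that number is per pool or in all. The labels name no treatment, strain or age. Because animals were mixed in each pool, p-values reflect how pools vary, not single mice, and the number of arrays limits their precision. Ly6a, which encodes Sca1, had intensities of 434.72 to 522.79 in perigonadal and 509.93 to 619.96 in subcutaneous pools. The genes of CD45 (Ptprc) and CD31 (Pecam1) had no name here. Across probe sets, log2 intensities of arrays correlated at 0.992 to 0.995 within a depot and at 0.978 to 0.981 between depots, and array medians lay between 6.44 and 6.96. An intensity below that range is dim. In RNA of whole pools, fewer cells of a type and less RNA per cell cannot be told apart.

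Chemokines are small secreted proteins that bind heparan sulphate and steer leukocytes through G protein-coupled receptors, while atypical receptors bind chemokines and remove or store them without classical signalling. Stromal cells of fat and lymphoid tissue are a known source of chemokines. Chemerin, the product of Rarres2, is a chemoattractant and adipokine secreted as an inactive precursor and activated by proteases at its end. It binds the signalling receptor Cmklr1, the receptor Gpr1 (also called Cmklr2), and Ccrl2, which holds chemerin at the cell surface without signalling.

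The sequences just before the starts of Cxcl9, Cxcl13 and Ccl8 are shown because these genes had the same direction of difference, with that of Cxcl10, which lies near Cxcl9, for comparison. They are the 250 bases before the annotated start from RefSeq (GRCm38.p6), 5′ to 3′ on the gene's strand. Capitals mark matches, on either strand, to 3 motifs. These are GAS, bound by STAT factors (TTC, any 3 bases, GAA), ISRE, bound by interferon regulatory factors (GAAA, any 2 bases, GAAA), and NF-kB (GGGA, any 4 bases, CC).
Cxcl9: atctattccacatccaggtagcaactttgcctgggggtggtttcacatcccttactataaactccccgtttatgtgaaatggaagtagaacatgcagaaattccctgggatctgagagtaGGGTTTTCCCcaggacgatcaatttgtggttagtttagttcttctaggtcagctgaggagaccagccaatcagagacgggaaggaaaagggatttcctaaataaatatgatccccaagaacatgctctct
Cxcl13: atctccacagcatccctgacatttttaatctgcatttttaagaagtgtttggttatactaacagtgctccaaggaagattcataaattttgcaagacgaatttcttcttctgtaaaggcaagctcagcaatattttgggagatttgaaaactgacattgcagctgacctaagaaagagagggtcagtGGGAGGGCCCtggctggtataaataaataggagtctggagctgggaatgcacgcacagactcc
Ccl8: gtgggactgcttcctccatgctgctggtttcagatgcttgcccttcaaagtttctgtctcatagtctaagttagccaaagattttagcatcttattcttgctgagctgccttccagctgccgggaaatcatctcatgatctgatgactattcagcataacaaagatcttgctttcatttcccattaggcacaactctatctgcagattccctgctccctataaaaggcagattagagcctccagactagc
Cxcl10: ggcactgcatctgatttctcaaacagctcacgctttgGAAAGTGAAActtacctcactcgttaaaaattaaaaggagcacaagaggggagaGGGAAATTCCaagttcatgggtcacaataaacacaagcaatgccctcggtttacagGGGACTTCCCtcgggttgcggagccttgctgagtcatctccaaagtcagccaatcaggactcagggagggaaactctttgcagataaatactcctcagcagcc
They lie at chr5:92328080-92328329 (minus strand), chr5:95956689-95956938 (plus), chr11:82114935-82115184 (plus) and chr5:92348890-92349139 (minus), in the order printed. Cxcl9 and Cxcl13 each held 1 NF-kB match, which 17.6% of all 32851 windows of this length also held. Ccl8 held none of the 3 motifs. The letters TATAAA, in 12.4% of windows, began 32 bases before the start of Ccl8, 46 before that of Cxcl13 and 195 before that of Cxcl9, and were in 1 window of Gpr1 on the other strand. Cxcl10 held 1 ISRE match, present in 2.98% of windows, and NF-kB matches at 2 places, 1 of which reads on both strands. The window of Cxcl14, which lies inside a longer annotated gene model and is not printed, held a GAS match, TTCTGAGAA, and an ISRE match, GAAACAGAAA. GAS matches were in 7.02% of windows. Gpr1 had 2 windows, both inside its longest gene model, of which 1 held an NF-kB match and the other none of the 3 motifs. A match is a string of letters and not a measured binding site, and a window without one says nothing about the factor.

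Ccl8 (transcript cluster 10379535, chromosome 11, band C) encodes a chemokine that attracts monocytes and T cells and, in mice, acts on Ccr8. Its normalized intensity was 4.42, 4.71 and 3.16 in perigonadal pools 1 to 3, against 59.07, 41.8 and 51.19 in subcutaneous pools 1 to 3. All perigonadal values were dim and no value of one depot reached the other: the lowest subcutaneous pool was 8.88 times the highest perigonadal one. Means were 4.10 ± 0.824 in perigonadal and 50.7 ± 8.65 in subcutaneous pools (SD, n = 3 each), which makes Ccl8 12.4-fold lower in perigonadal pools. On the log2(intensity + 1) scale, which understates changes of dim genes, the difference was -3.34 ± 0.14 (perigonadal minus subcutaneous, SE of the fit).

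Cxcl13 (10523359, chromosome 5, band E3) encodes the B cell attractant that acts on Cxcr5 and organises lymphoid follicles. Its intensity was 25.13, 19.49 and 35.29 in perigonadal pools, against 283.18, 261.73 and 260.9 in subcutaneous pools. Unlike Ccl8, it stayed above the array medians in every perigonadal pool. Its means were 26.6 ± 8.01 in perigonadal and 268.6 ± 12.6 in subcutaneous pools (SD, n = 3 each), 10.1-fold lower in perigonadal pools, and the log2 difference was -3.33 ± 0.15. The relative spread was wider in perigonadal pools, with a coefficient of variation of 30.1% there and 4.70% in subcutaneous pools.

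Cxcl9 (10531407, chromosome 5, band E2) encodes a chemokine induced by interferon gamma that attracts activated T and NK cells through Cxcr3. It had intensities of 12.71, 6.38 and 19.41 in perigonadal pools, against 68.38, 62.92 and 88.67 in subcutaneous pools. Perigonadal pool 2 was dim, while perigonadal pools 1 and 3 were above the array medians, and none reached a subcutaneous pool. The mean was 12.8 ± 6.52 in perigonadal and 73.3 ± 13.6 in subcutaneous pools (SD, n = 3 each), 5.71-fold lower in perigonadal pools, with a log2 difference of -2.53 ± 0.18. Of the 5 genes it had the widest relative spread in both depots, at 50.8% in perigonadal and 18.5% in subcutaneous pools, and the groups still stood apart by a factor of 3.24 between the nearest pools.

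Cxcl14 (10409579, chromosome 13, band B1) encodes a chemokine made steadily by skin and other epithelia and stroma. Intensities of 38.31, 33.54 and 49.12 in perigonadal pools stood against 210.44, 185.76 and 254.6 in subcutaneous pools. Its pools had the same order in both depots, pool 3 highest and pool 2 lowest, as had those of Cxcl9. The log2 differences of pool pairs 1, 2 and 3 were close to each other for Cxcl14, at -2.43, -2.44 and -2.35, and farther apart for Cxcl9, at -2.34, -3.12 and -2.13. The means were 40.3 ± 7.98 in perigonadal and 216.9 ± 34.9 in subcutaneous pools (SD, n = 3 each), 5.38-fold lower in perigonadal pools, and the log2 difference was -2.40 ± 0.085.

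Gpr1 (10355109, chromosome 1, band C2), a receptor of chemerin, had intensities of 3.47, 2.75 and 4.49 in perigonadal pools, against 51.82, 45.5 and 45.8 in subcutaneous pools. Every perigonadal value was dim, and the nearest pools of the depots differed by a factor of 10.1, the widest gap among the 5 genes. Means were 3.57 ± 0.874 in perigonadal and 47.7 ± 3.57 in subcutaneous pools (SD, n = 3 each), 13.4-fold lower in perigonadal pools. Its log2 difference was -3.43 ± 0.12 with a pseudocount of 1. The authors' deposited table, which holds log2 means without a pseudocount, gives -3.77 for Gpr1, -3.64 for Ccl8, -3.38 for Cxcl13, -2.64 for Cxcl9 and -2.43 for Cxcl14.

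For all 5 genes every perigonadal pool was below every subcutaneous pool. That was so for 14.4% of all probe sets, and 9.51% of all probe sets passed limma's test in either direction. Nothing can be read from the count of 5, because the genes were chosen on this comparison. By size of difference they stood at places 8 (Gpr1), 9 (Ccl8), 10 (Cxcl13), 32 (Cxcl9) and 35 (Cxcl14) from the lowest of 23531 probe sets. These places hold for a pseudocount of 1. With a pseudocount of 16 the order among the 5 was another, Cxcl13 lowest at -2.76, then Cxcl14 at -2.05, Ccl8 at -1.72, Gpr1 at -1.70 and Cxcl9 at -1.65. Among named chemokine genes the next below them was Cxcl10, at a log2 difference of -1.54.

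**Figure D1:**
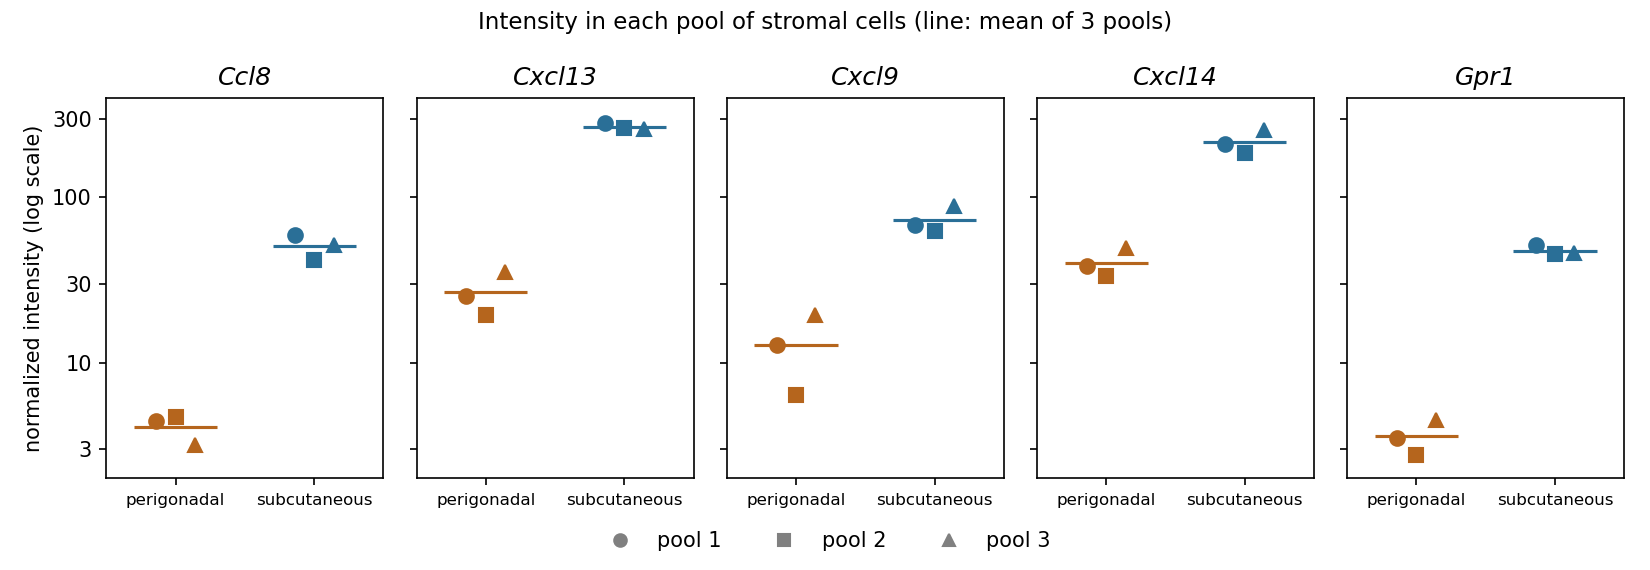
Normalized intensity (log axis) of the 5 genes in perigonadal pools (left in each panel) and subcutaneous pools (right). Points are single pools, marked by pool number, and lines are means of 3 pools. Ccl8 and Gpr1 lie between 2.75 and 4.71 in perigonadal pools and between 41.8 and 59.07 in subcutaneous pools.

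The spread between pools is given as a description too, since the authors' paired p-value depends on it in part. In perigonadal cells Cxcl13, Cxcl9, Cxcl14 and Gpr1 were all highest in pool 3, intermediate in pool 1 and lowest in pool 2, an order that 19.5% of all probe sets shared. Ccl8 ran differently, highest in pool 2 and lowest in pool 3. Deviations from the perigonadal mean lay between -0.79 (pool 2) and 0.68 (pool 3) on the log2 scale for Cxcl9, and stayed between -0.28 and 0.30 for Ccl8, Cxcl14 and Gpr1. In subcutaneous cells the pools followed no single order. Cxcl9 and Cxcl14 were highest in pool 3, whereas Ccl8, Cxcl13 and Gpr1 were highest in pool 1.

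**Figure D2:**
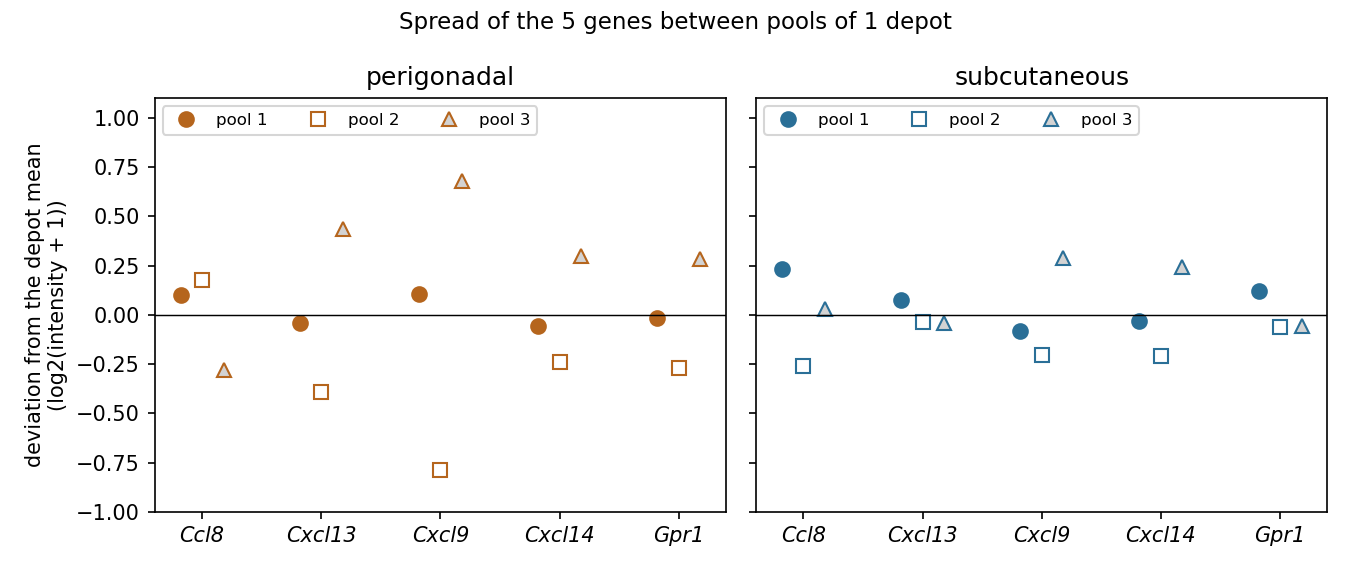
Deviation of each pool from its depot's mean on the log2(intensity + 1) scale, perigonadal pools at the left and subcutaneous pools at the right. In perigonadal pools, Cxcl13, Cxcl9, Cxcl14 and Gpr1 share pool 3 as highest and pool 2 as lowest, and Cxcl9 spans -0.79 to 0.68.

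The profiles of the genes over the 6 pools were compared with those of the other 3180 named genes by the root mean square distance of mean-centred log2 values, as a description. The gene nearest to Cxcl13 was Gpr1, and the gene nearest to Gpr1 was Cxcl13, at a distance of 0.098. Next for Cxcl13 came the tight junction gene Cldn10 (0.21) and Cox8b (0.22), a subunit of mitochondrial cytochrome oxidase, and next for Gpr1 came Cox8b (0.22) and the cadherin Cdh9 (0.22). Cxcl9 lay nearest to Cxcl14 (0.29), followed by the limb and body-wall transcription factor Tbx15 (0.34) and the lysosomal protease Lgmn (0.36). Nearest to Cxcl14 were the BMP antagonist Chrdl1 (0.17), the melanosome gene Mlana (0.20) and the complement gene C4b (0.21). Ccl8 was nearest to the transcription factor Osr2 (0.18), the small GTPase Rab38 (0.26) and the growth factor binding protein Igfbp5 (0.27). No other of the 5 genes was among the 3 nearest to Ccl8. Depot and size of difference weigh most in this distance, since the points share only 2 groups.

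The chemerin genes differed in direction. Beside the much lower Gpr1, the main signalling receptor Cmklr1 was 2.15-fold higher in perigonadal pools and the chemerin-holding receptor Ccrl2 was 1.69-fold higher. The gene of the ligand, Rarres2, differed little. Cmklr1 had intensities of 44.51, 47.6 and 57.62 in perigonadal pools, against 24.53, 22.17 and 22.91 in subcutaneous pools, a log2 difference of 1.07 ± 0.11 (limma adjusted p = 0.00103). Its groups did not overlap. Ccrl2 was at 10.01, 12.58 and 11.42 in perigonadal pools and at 5.98, 6.09 and 8.05 in subcutaneous pools, a log2 difference of 0.68 ± 0.11 (limma adjusted p = 0.00867). Without pool pair 1 its adjusted p was 0.0695, and with a pseudocount of 16 it was 0.0513 (range over the alternatives 0.00191 to 0.309). Rarres2 was bright in every pool, at 688.75, 697.69 and 675.74 in perigonadal pools and 753.2, 749.94 and 782.57 in subcutaneous pools. Its log2 difference of -0.15 ± 0.086 did not pass (limma adjusted p = 0.388), although its groups did not overlap either. Of 3 chemerin genes other than Gpr1, limma at an adjusted p below 0.05 thus called 2 higher and none lower. Over all probe sets the shares were 4.05% higher and 5.47% lower, and over the named genes, each already selected by the authors' test, 20.9% higher and 31.4% lower.

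Of 13 enzymes known to process chemerin, 3 had a name. Among all probe sets limma called 4.05% higher and 5.47% lower. Among named genes, each already selected by the authors' test, it called 20.9% higher and 31.4% lower. Cathepsin K (Ctsk) was lower, at 182 ± 15.2 in perigonadal and 378.8 ± 25.8 in subcutaneous pools (SD, n = 3 each, log2 difference -1.05, limma adjusted p = 0.000856). Urokinase (Plau) was higher by a log2 difference of 0.39 (limma adjusted p = 0.0330), a call lost without any 1 of the 3 pool pairs (adjusted p of 0.132, 0.112 and 0.0843 without pairs 1, 2 and 3), while the third did not pass. With a pseudocount of 16, 2 of these enzymes were lower. The Plau call was also lost with a pseudocount of 0.1 (0.0576), and in fits with no replicate block without perigonadal pool 2 or 3 or any subcutaneous pool (0.0639 to 0.134). Over its alternatives the adjusted p ran between 0.0218 and 0.248.

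Other chemokine ligands went both ways, and by less. Of 38 ligand genes in the lists, 11 had a name, among them the 4 chosen ones. Of the 7 others, limma called Cxcl10 and Cxcl12 lower and Cxcl16 higher, and 4 did not pass. Their median log2 difference was -0.26, beside -0.010 over all probe sets and -0.17 over named genes. Limma called 4.05% of all probe sets higher and 5.47% lower, and 20.9% and 31.4% of named genes.

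Cxcl10, which like Cxcl9 is interferon-induced and acts on Cxcr3, had intensities of 88.05, 61 and 70.22 in perigonadal pools, against 212.42, 206.13 and 218.51 in subcutaneous pools. It was 2.91-fold lower in perigonadal pools, with no overlap (log2 difference -1.54 ± 0.11, limma adjusted p = 0.000207). Cxcl9 and Cxcl10 lie 18.6 kb apart on chromosome 5 (GRCm38.p6), and Cxcl13 lies 3608 kb beyond Cxcl10. Cxcl12, the ligand of Cxcr4 that retains blood progenitors and B cells in their niches, was at 50.51, 53.39 and 74.56 in perigonadal pools and at 83.73, 77.41 and 94.5 in subcutaneous pools. Its highest perigonadal pool came close to its lowest subcutaneous one, and the log2 difference was -0.53 ± 0.10 (limma adjusted p = 0.0181). The Cxcl12 call was lost with no replicate block (adjusted p = 0.0564), without pool pair 1 (0.121) or 2 (0.0757), and, in fits with no block, without any 1 array but that of perigonadal pool 3 (0.0822 to 0.184); over its alternatives the adjusted p ran between 0.00563 and 0.313.

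Cxcl16, a membrane-bound ligand of Cxcr6, was higher at 27.76, 24.49 and 28.68 in perigonadal pools, against 21.38, 16.88 and 22.95 in subcutaneous pools (log2 difference 0.39 ± 0.090, limma adjusted p = 0.0357). That call too was lost with no replicate block (0.0858), without pool pair 1 (0.139) or 2 (0.223), with a pseudocount of 0.1 (0.0546), and without any 1 of the 6 arrays in fits with no block (0.0671 to 0.252; range over the alternatives 0.0268 to 0.272). Ccl11, eotaxin, which attracts eosinophils through Ccr3, lies 52.2 kb from Ccl8 in the chemokine cluster of chromosome 11. Its intensity was 927.82, 1037.08 and 997.34 in perigonadal pools, against 727.59, 754.93 and 832.07 in subcutaneous pools, so every perigonadal pool was above every subcutaneous one, opposite to Ccl8. The log2 difference of 0.36 ± 0.089 narrowly missed the threshold (limma adjusted p = 0.0506). It passed with a pseudocount of 16 (0.0323), with dim probe sets left out (0.0404), with no replicate block (0.0421), without pool pair 3 (0.0485) and without subcutaneous pool 3 (0.0493), in a range over the alternatives of 0.0323 to 0.282.

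Ccl19, which guides T cells and dendritic cells through Ccr7, had 5 probe sets with nearly the same values. Near-identical copies of this gene could share signal, so its level is uncertain. By the brightest it was at 104.7 ± 1.71 in perigonadal and 126.1 ± 10.9 in subcutaneous pools (SD, n = 3 each), and no probe set passed (log2 differences of -0.26 to -0.24, limma adjusted p of 0.137 to 0.166). Cx3cl1 and the neutrophil attractant Cxcl5 were below the median of their own array in every pool, at 4.37 to 6.64 and 2.88 to 3.91 in perigonadal pools and 3.63 to 5.11 and 3.85 to 4.73 in subcutaneous pools. Neither passed (limma adjusted p of 0.156 for Cx3cl1 and 0.0783 for Cxcl5). The 18 signalling chemokine receptors of the lists, such as Cxcr3, Cxcr5 and Ccr8, had no name here and were not analysed.

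**Figure D3:**
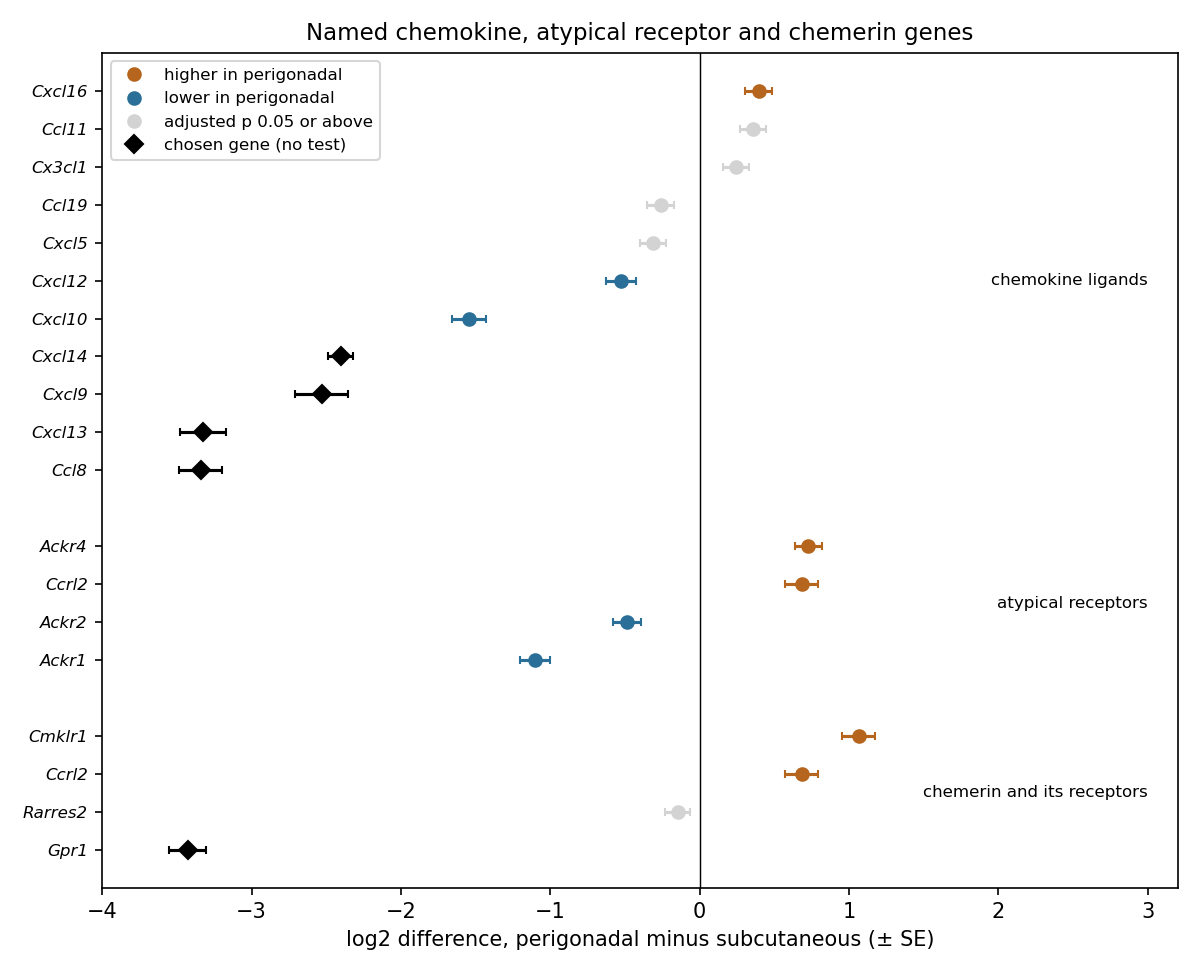
Log2 difference, perigonadal minus subcutaneous, with its SE for each named chemokine ligand, atypical receptor and chemerin gene (Ccrl2 is in both of the lower groups). Diamonds are the 5 chosen genes, between -3.43 and -2.40; circles are coloured by the limma call, and the other genes lie between -1.54 and 1.07.

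All 4 named atypical receptors passed limma's threshold, 2 higher and 2 lower, so the group as a whole had no single direction. Over all probe sets 4.05% were higher and 5.47% lower, and over named genes 20.9% and 31.4%. Genes had to pass the authors' own test to have a name, so this count is no independent evidence of change. Ackr1, which binds many inflammatory chemokines and is known from red cells and venules, was 2.22-fold lower, at 22.95, 26.72 and 23.31 in perigonadal pools against 44.02, 65.59 and 52.15 in subcutaneous pools (log2 difference -1.10 ± 0.10, limma adjusted p = 0.000573). Ackr2, a scavenger of inflammatory CC chemokines, was at 48.11, 54.74 and 58.74 in perigonadal pools and 60.13, 83.9 and 85.83 in subcutaneous pools. Its groups nearly touched (log2 difference -0.49 ± 0.096, limma adjusted p = 0.0196). Ackr4, which takes up Ccl19, Ccl21 and Ccl25, was 1.74-fold higher at 14.2, 12.48 and 13.04 in perigonadal pools, against 7.77, 6.85 and 8.19 in subcutaneous pools (log2 difference 0.73 ± 0.089, limma adjusted p = 0.00239). The fourth was Ccrl2, given above with the loss of its call without pool pair 1. Ackr2's call was lost with no replicate block (0.0684), with quantile normalization (0.0504), without pool pair 2 (0.123), and, in fits with no block, without any 1 array but that of subcutaneous pool 1 (0.0774 to 0.222; range over the alternatives 0.0106 to 0.295).

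Cxcl9 is a textbook target of interferon gamma. Of 30 genes on the list of that pathway, 11 had a name and could be read: 10 were lower in perigonadal pools, none was higher and 1 did not pass, with a median log2 difference of -0.85. Over all probe sets 5.47% were lower, and over named genes 31.4%. Cxcl10 led them, followed by the immunity-related GTPase Iigp1, at 37.8 ± 6.86 in perigonadal and 98.9 ± 1.68 in subcutaneous pools (SD, n = 3 each, log2 difference -1.38). The immunoproteasome subunit Psmb8 was at 30.8 ± 6.63 in perigonadal and 71.7 ± 7.67 in subcutaneous pools (-1.21), and the guanylate-binding protein Gbp6 at 19.95 ± 2.44 in perigonadal and 45.4 ± 4.66 in subcutaneous pools (-1.15). The limma adjusted p-values of Iigp1, Psmb8 and Gbp6 were 0.000404, 0.00170 and 0.000556. The receptor chain Ifngr2 had a log2 difference of -0.57 (limma adjusted p = 0.00818) and was picked for mention after its values were seen. Without pool pair 1, 6 of these genes were lower. Genes had to pass the authors' own test to have a name, so the count is no independent evidence of direction. Chosen likewise, Gbp6, Irgm2, Psmb9, Tap1, Irgm1 and Irf9 were in perigonadal pools highest in pool 3 and lowest in pool 2, as Cxcl9 was, whereas Iigp1 was lowest in pool 3 and Cxcl10 highest in pool 1. Of 24 genes induced by type I interferon, 16 had a name, and 15 of these were lower, led by Usp18, Ifit1, Rtp4 and Bst2 with log2 differences of -2.22, -1.69, -1.43 and -1.33 (limma adjusted p of 3.67e-05 to 0.000616).

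**Figure D4:**
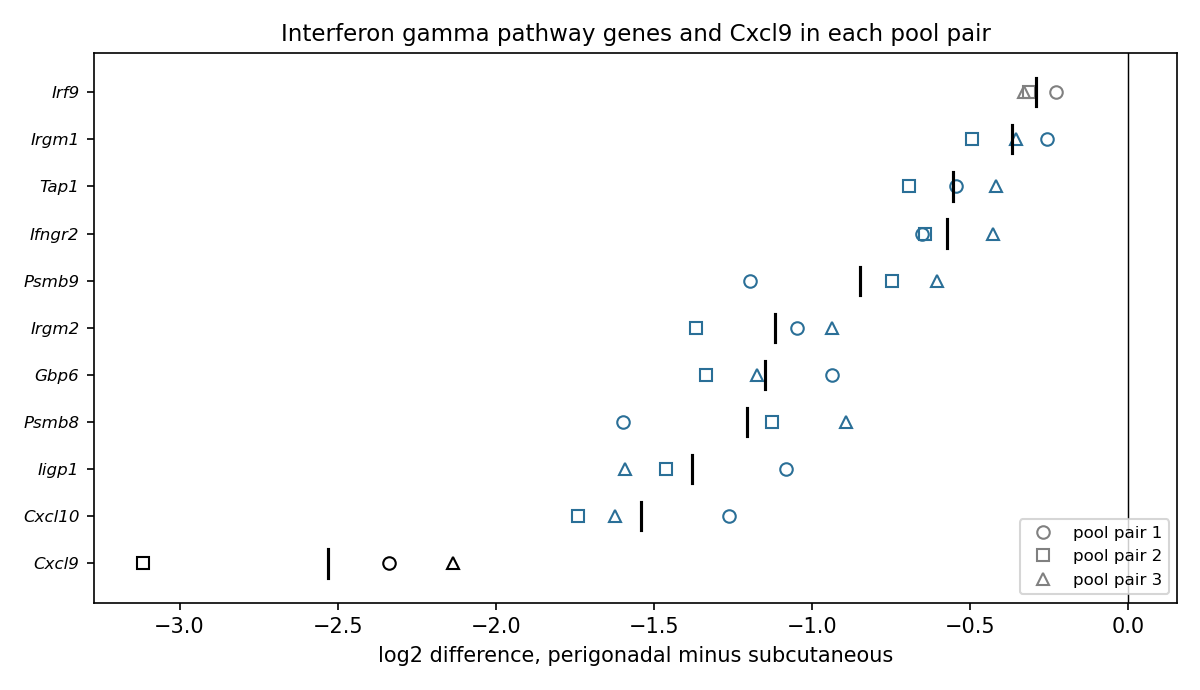
Log2 difference, perigonadal minus subcutaneous, of 10 of the 11 named interferon gamma pathway genes and of Cxcl9 in each pool pair (symbols), with the fitted difference as a bar. Every pair of every gene drawn lies below 0. That agreement was fixed in advance and is no finding. Each gene with a name had passed the authors' paired test, which with so few pairs requires all of them to share a sign. Irf9, in grey, did not pass the threshold, and Cxcl9, in black, carries no test.

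Cxcl13 is known in lymph nodes from stromal cells that answer lymphotoxin and TNF, whose named genes went both ways. Of 24 lymphoid stroma organisers, 5 had a name, of which 2 were higher, 1 was lower and 2 did not pass. Among all named genes, each selected by the authors' test, 20.9% were higher and 31.4% lower, against 4.05% and 5.47% of all probe sets. The adhesion molecule Vcam1 was higher at 111.9 ± 5.40 in perigonadal against 75.7 ± 11.9 in subcutaneous pools (limma adjusted p = 0.0121). Tnf was higher at 6.79 ± 0.242 in perigonadal against 3.42 ± 0.419 in subcutaneous pools (limma adjusted p = 0.00217). It was dim in every subcutaneous pool and near the array medians in perigonadal pools, at 6.6 to 7.06. Its log2 difference of 0.82 ran between 0.23 and 0.97 over the alternatives. The alarmin Il33 was lower at 39.6 ± 7.76 in perigonadal against 98.0 ± 14.6 in subcutaneous pools (SD, n = 3 each, limma adjusted p = 0.00174). The Vcam1 call was lost without pool pair 1 (0.0932) or 2 (0.0582) and, in fits with no block, without subcutaneous pool 1 (0.0549) or 2 (0.0578; range over the alternatives 0.00396 to 0.295). Of 22 NF-kB pathway genes, 3 had a name: the inhibitor Nfkbie and the cytokine Il6 were higher by log2 0.80 and 0.59, and Tlr4 had a log2 difference of -0.58 (limma adjusted p of 0.00154, 0.00781 and 0.00956). Without pool pair 1 the adjusted p was 0.0681 for Il6 and 0.0798 for Tlr4, and without pool pair 2 it was 0.0625 for Tlr4. The Il6 call was lost as well, in fits with no block, without perigonadal pool 2 (0.0799) or 3 (0.0646) or subcutaneous pool 1 (0.0541). Over the alternatives the adjusted p ran between 0.00789 and 0.256 for Il6 and between 0.00371 and 0.272 for Tlr4.

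Proteases that trim chemokines were lower in perigonadal pools in 6 of 7 named cases of 13. Over all probe sets 5.47% were lower, and over named genes 31.4%. Genes had to pass the authors' own test to have a name, so the count is no independent evidence of direction. Mmp3 led the proteases at 11.3 ± 0.899 in perigonadal against 334.9 ± 8.54 in subcutaneous pools. Dpp4, which clips chemokines such as Cxcl9 and Cxcl10 at their first residues, followed. It was at 118 ± 7.50 in perigonadal against 341.6 ± 14.3 in subcutaneous pools (SD, n = 3 each). Fap and Anpep had log2 differences of -1.04 and -0.99, and the limma adjusted p-values of these 4 genes lay between 5.61e-07 and 0.000551. Of 27 genes of heparan sulphate proteoglycans, 10 had a name, and 5 were higher, 4 lower and 1 did not pass. The shares higher were 4.05% over all probe sets and 20.9% over named genes. The epimerase Glce, which makes heparan sulphate more flexible, was lower at 21.7 ± 3.10 in perigonadal against 53.9 ± 6.04 in subcutaneous pools (SD, n = 3 each), while Gpc3, Sdc4 and the sulphatase Sulf2 were higher by log2 0.77, 0.63 and 0.58 (limma adjusted p of 0.000253, 0.00143, 0.00625 and 0.00761 in this order). Without pool pair 1, 1 gene of this list was higher and 1 was lower, and Sdc4 and Sulf2 had an adjusted p of 0.0626 and 0.0683 (ranges over the alternatives 0.00202 to 0.256 and 0.00374 to 0.235). Elsewhere the number higher fell to 3 with no replicate block, without pool pair 2 or 3, and in fits with no block without perigonadal pool 2 or 3 or subcutaneous pool 1 or 3, and the number lower to 1 without pool pair 2 and to 2 without perigonadal pool 2 or subcutaneous pool 2 or 3.

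Markers of other cells were read beside these genes, since leukocytes, endothelium and mesothelium can also make chemokines. Of 14 macrophage markers 4 had a name, with a summed intensity of 19.5 to 21.2 in perigonadal and 33.7 to 46.5 in subcutaneous pools. Of these 4, 1 was higher, 1 was lower and 2 did not pass. C1qa was dim, at 3.92 to 4.75 in perigonadal and 4.35 to 5.27 in subcutaneous pools, and so was the endothelial and macrophage marker Lyve1, higher at 4.86 to 6.23 in perigonadal against 3.34 to 3.6 in subcutaneous pools (limma adjusted p = 0.0128; 0.0681 without pool pair 2, 0.0713 with a pseudocount of 16, range 0.00807 to 0.272). The B cell marker Ms4a1 (1 of 6 named) was at 2.23 to 2.45 in perigonadal and 2.5 to 2.79 in subcutaneous pools, and the T cell marker Cd4 (1 of 9) at 2.21 to 3.32 in perigonadal and 2.36 to 3.57 in subcutaneous pools. None of the 6 general leukocyte, 9 dendritic cell or 8 neutrophil and mast cell markers had a name.

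All 9 named of 13 mesothelial markers were higher. Their intensities summed to 329.5 to 367.9 in perigonadal and 51.1 to 63.9 in subcutaneous pools. Wt1, Rspo1 and Upk3b led them (log2 differences of 4.78, 2.52 and 2.27, limma adjusted p up to 0.000165). The brightest in perigonadal pools were Wt1, at 126.07 to 152.51, and Rspo1, at 81.85 to 110.46, so the sum rests mostly on them. Whether mesothelial cells or the stromal cells themselves made these RNAs was not tested, so the sum is no measure of mesothelial content. Over all probe sets 4.05% were higher and 5.47% lower. Over named genes, each already selected by the authors' test, these shares were 20.9% and 31.4%, which limits all marker counts here. All 3 named of 6 Schwann cell markers were lower, summing to 18.4 to 20.7 in perigonadal and 50.8 to 61.4 in subcutaneous pools. Among them were S100b and Mbp, with log2 differences of -1.46 and -1.27 (limma adjusted p of 9.93e-05 and 0.000135). Of 10 pericyte and smooth muscle markers 5 had a name, 3 higher and 2 lower, led by Abcc9 (-2.07), Acta2 (1.49) and Kcnj8 (-0.92), with sums of 63.7 to 86.6 in perigonadal and 55.5 to 80 in subcutaneous pools. Tek, 1 of 2 named of 10 endothelial markers, was lower (-0.76, limma adjusted p = 0.00183). The other, the dim Lyve1, was higher (0.53), with the limits given above. The sums of both were 79.9 to 84.9 in perigonadal and 124.7 to 142.5 in subcutaneous pools and rest mostly on Tek. Lpl, the only named adipocyte marker of 8, was lower too (-0.65, limma adjusted p = 0.00600). Of 14 stromal markers 9 had a name, 7 of them lower and none higher, with sums of 2620 to 3009 in perigonadal and 4489 to 4865 in subcutaneous pools, led by Dpp4, Col1a1 (-1.11) and Pi16 (-1.02). The part of these markers in the differences of the 5 genes was not tested.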

How the data were processed

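RNA of sorted adipose stromal cells was measured on 6 arrays, 3 perigonadal and 3 subcutaneous pools. The deposited value table holds 1 normalized intensity per probe set on a linear scale, and its log2 values average to the log2 means in the authors' table. The submitters' processing notes name Partek. How background was corrected and arrays were normalized is not given in the sources used here. Per the file headers, the authors' comparison table gives mean log2 intensities, their difference, the ratio, a signed fold (a score) and a paired test's t score with its raw p-value. Names come only from that table: 15% of probe sets have one. Of its 3694 entries, 3417 were named through a RefSeq accession (GRCm38.p6), 166 by symbol, 53 by synonym and 58 by the file's symbol alone.

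Differences are perigonadal minus subcutaneous on log2(intensity + 1), fitted with limma 3.58.1 in R 4.3.3 (lmFit, eBayes, pool number as block, no filter) over 23531 probe sets, with Benjamini-Hochberg adjustment at 0.05. The block follows the authors' paired test; deviations of same-numbered pools correlated at 0.17, 0.16 and 0.053. In simulated data with 200 of 23531 probe sets changed, the fit found 78% of changes of log2 1 and 97% of changes of log2 2. Of 180 calls there, 5 were false. The simulated noise was independent between arrays, with no pool effect, and fewer probe sets were changed than the 9.51% called in the real data. Changes below log2 1 were not simulated, so these rates do not cover the smaller differences called. The brightest probe set stood for a gene. Some genes of the lists are counted but not reported here by name. All chemokine, atypical receptor and chemerin genes with a name are given, and up to 4 called genes of other lists (3 of marker lists). The 5 genes and the lists were chosen with earlier results of these data known. The alternatives were pseudocounts of 0.1 and 16, a filter on dim probe sets, quantile normalization, no block, pool pairs or arrays left out, the median over probe sets and the methods' t-test.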

Additional observations from a re-analysis of the deposited data

How the results depend on the processing

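All 5 chosen genes kept a negative difference under each alternative run. With a pseudocount of 16 the log2 differences were -1.72 for Ccl8, -2.76 for Cxcl13, -1.65 for Cxcl9, -2.05 for Cxcl14 and -1.70 for Gpr1, and with one of 0.1 it was -3.73 for Gpr1, against -3.77 in the authors' deposited table. The pseudocount weighs most where perigonadal intensities are dim. Leaving out a pool pair or an array moved Cxcl14 between -2.55 and -2.28. Over all probe sets, 952 were higher and 1286 lower. These counts ran between 529 and 1068 and between 660 and 1408 with a pool pair or array left out, the lowest being without pool pair 1; leaving out pool pair 2 gave 716 lower. The methods' t-test gave 1 higher and 0 lower after adjustment, so that the calls named in the report, other than that of Wt1, were lost; the authors' deposited table holds 3541 of the probe sets at an unadjusted p below 0.05. Of chemokine ligands other than the chosen ones, 1 was higher and 2 lower: 0 were higher with a pseudocount of 0.1, 2 with one of 16 or with dim probe sets left out, and 0 to 2 with a pool pair or array left out, while 1 was lower with no replicate block and 1 to 2 with a pool pair or array left out. Of atypical receptors, 2 higher and 2 lower, 1 was higher with a pseudocount of 16 and 1 lower with quantile normalization or no replicate block. The leave-out fits gave 1 to 2 in each direction. Of chemerin genes other than Gpr1, 2 higher became 1 with a pseudocount of 16 and 1 to 2 in the leave-out fits. Each of these lists had 0 calls with the methods' t-test. Cd4, dim and not called, had a log2 difference of -0.089 in all pools, of 0.040 without perigonadal pool 3 and of -0.23 without subcutaneous pool 3, the extremes of the leave-out fits. The fits without 1 array have no replicate block, so a call lost there may reflect either change. With no replicate block, the heparan sulphate genes higher were 3 in place of 5, the interferon gamma genes lower 9 in place of 10 and the type I interferon genes lower 12 in place of 15.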
